A study of Mus musculus with 2 samples.

Results

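The cells described here were the noradrenergic neurons of the mouse locus coeruleus, chosen by a gate on 4 genes in single-cell RNA sequencing. A barcode entered the gate when the transcripts of Dbh, Slc6a2, Slc18a2 and Th summed to at least 10 UMIs (unique molecular identifiers, each standing for 1 captured transcript) per 10000 UMIs of the barcode and at least 2 of the 4 genes were detected. Barcodes with fewer than 300 genes or with more than 20% of their UMIs from the mitochondrial genome were left out first. This chose 106 of the 3035 barcodes that passed these filters, 12 of 295 in library 1 and 94 of 2740 in library 2. The gate took 4.07% of barcodes in library 1 (exact binomial 95% interval 2.12 to 7.00) and 3.43% in library 2 (2.78 to 4.18), and these intervals cover counting error only.

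The study profiled the locus coeruleus of mice (wild type, strain C57BL/6N, 3 to 4 weeks of age, males and females), and its title asks how varied neuropeptide signalling is there. There was 1 group, with no treatment, and 2 libraries, named batch 1 and batch 2, here called library 1 and library 2. The labels describe both a papain dissociation of brain slices with methanol fixation and an isolation of sorted nuclei, each followed by droplet 3' sequencing. Which library came from which preparation, and how many mice each pooled, was not given in the sources used here, so the library, its preparation and its animals cannot be told apart. The study's text states 2578 cells in all, while the 2 deposited matrices hold 3100 barcodes. The cells described below were therefore compared between cell classes within each library, and the libraries were set side by side without a test.

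Locus coeruleus neurons are the main source of noradrenaline to the forebrain, cerebellum and spinal cord. They make it from tyrosine in steps run by tyrosine hydroxylase (Th) and aromatic amino acid decarboxylase (Ddc), then inside the vesicle by dopamine beta-hydroxylase (Dbh). Slc18a2, the vesicular monoamine transporter, loads the vesicle, Slc6a2 takes noradrenaline back up from outside the cell, and monoamine oxidases break down what is left in the cytosol. The homeodomain factor Phox2a takes part in setting this identity during development.

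The promoters of 3 gate genes and of Maoa are printed, since these genes synthesise, store and break down the amine and lead the results below. They come from RefSeq on GRCm38.p6 and run from 250 bases before the annotated start to 50 after it, 5′ to 3′ on the gene's strand. Capitals mark the letters TGACG on either strand, the core of the cyclic AMP response element, and TGACGTCA is that element in full. The windows lie at chr2:27165257-27165556 (Dbh, plus strand), chr7:142899946-142900245 (Th, minus strand), chr19:59260628-59260927 (Slc18a2, plus strand) and chrX:16619448-16619747 (Maoa, plus strand).
Dbh: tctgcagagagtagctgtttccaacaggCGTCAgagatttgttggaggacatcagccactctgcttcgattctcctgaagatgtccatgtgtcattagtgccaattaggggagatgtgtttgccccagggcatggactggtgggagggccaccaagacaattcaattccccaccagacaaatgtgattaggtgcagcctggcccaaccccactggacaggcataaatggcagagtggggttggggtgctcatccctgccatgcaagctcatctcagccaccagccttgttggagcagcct
Th: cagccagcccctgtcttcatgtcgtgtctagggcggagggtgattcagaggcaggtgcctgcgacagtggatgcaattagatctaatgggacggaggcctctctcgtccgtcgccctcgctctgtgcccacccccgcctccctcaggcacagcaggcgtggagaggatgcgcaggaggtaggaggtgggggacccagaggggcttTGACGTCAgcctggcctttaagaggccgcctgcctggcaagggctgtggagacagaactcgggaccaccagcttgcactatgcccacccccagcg
Slc18a2: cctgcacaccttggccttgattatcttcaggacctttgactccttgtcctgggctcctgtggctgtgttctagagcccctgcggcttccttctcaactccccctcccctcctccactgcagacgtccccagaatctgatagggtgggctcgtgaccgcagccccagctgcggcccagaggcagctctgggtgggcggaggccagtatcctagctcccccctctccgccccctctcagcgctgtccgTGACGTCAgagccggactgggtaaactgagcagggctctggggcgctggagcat
Maoa: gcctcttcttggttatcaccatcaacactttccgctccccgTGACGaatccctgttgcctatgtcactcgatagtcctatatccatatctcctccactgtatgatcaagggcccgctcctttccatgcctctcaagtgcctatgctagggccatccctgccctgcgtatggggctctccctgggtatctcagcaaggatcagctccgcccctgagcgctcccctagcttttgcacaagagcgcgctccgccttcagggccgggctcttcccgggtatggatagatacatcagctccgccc

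The full element stood in the Th and Slc18a2 windows, and the core alone in those of Dbh and Maoa. Of all 32851 RefSeq windows of this length, 1.79% held TGACGTCA and 20.8% held TGACG. Of the genes tested below, 9053 had a window, and 3.47% and 33.3% of these held them. The genes that rose at least 2-fold in the gated cells held them at 2.62% and 31.7% (726 genes). The homeodomain core TAATTA, searched on both strands, was in none of the 4 printed windows and in 5.29% of all windows. A match of letters in a window is a description and was not tested for binding.

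The 4 gate genes are given as a description, since they chose the cells. In the 12 gated cells of library 1, Slc18a2 ran from 9.42 to 57.0 UMIs per 10000 with a median of 36.0, and Slc6a2 from 15.2 to 38.1 with a median of 28.7. Dbh ran from 6.24 to 21.4 with a median of 13.9, and Th from 0.536 to 4.32 with a median of 2.71. All 12 cells held all 4 genes, and their sum lay between 43.1 and 113 UMIs per 10000, far above the line of 10. In library 2 the sum ran from 10.1 to 119.7 with a median of 48.6, and 50 of the 94 cells held 4 genes, 25 held 3 and 19 held 2. Th was the gene most often missing, with a UMI in 55 of 94 cells, against 80 for Dbh and 89 each for Slc6a2 and Slc18a2. The number of gate genes seen followed depth, with median totals of 9194 UMIs in cells holding 4 of them, 5977 in cells holding 3 and 1146 in cells holding 2.

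**Figure D1:**
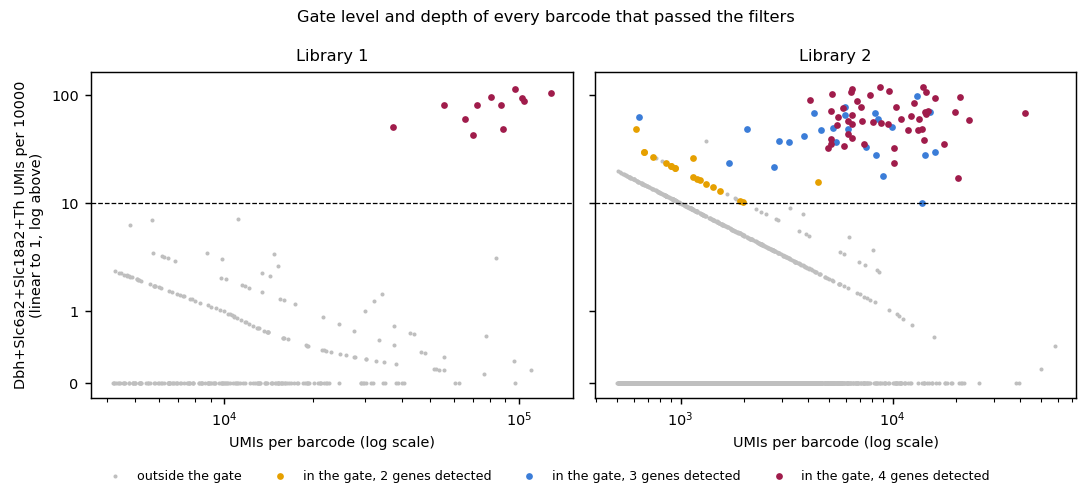
Each point is 1 barcode that passed the filters, with its total UMIs on a log axis and the summed UMIs of the 4 gate genes per 10000 UMIs on an axis that is linear to 1 and logarithmic above. Coloured points are the 12 and 94 gated cells by the number of gate genes detected, grey points are all other barcodes, and the dashed line is the gate at 10. Library 1 leaves an empty band between its gated cells, at 43.1 or more, and the line, while library 2 has gated cells down to it.

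Close to the line the libraries differed. Between 10 and 15 UMIs per 10000 there were no gated cells in library 1 and 5 in library 2, with a median of 10.5 per 10000 in cells of 1908 UMIs. Just outside, between 5 and 10 with at least 2 genes, there were 3 barcodes in library 1 (median 7.01 per 10000) and 5 in library 2 (8.31). Library 2 also had 105 barcodes above 10 that showed 1 gate gene and so stayed out, and 99 of these rested on a single UMI in shallow barcodes, with a median of 786 UMIs in all 105. Library 1 had none.

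Genes outside the gate were used to check the label. The gated cells held pan-neuronal transcripts, with Syt1, the calcium sensor of synaptic vesicles, at 3634 and 3562 CPM (counts per 1000000, the UMIs of the gene in every 1000000 UMIs of the class, here in libraries 1 and 2) against 1141 and 1120 in other neurons. Snap25, a vesicle fusion protein, stood at 1715 and 1378 CPM against 1153 and 837. The neuronal nuclear factor Rbfox3 was low in the gated cells, at 37.5 and 73.9 CPM against 386 and 454. These levels are sums over a class, and single cells could differ. In library 2, 9 of the 94 gated cells held fewer than 2 pan-neuronal UMIs per non-neuronal marker UMI, and 2 held no pan-neuronal UMI. For such cells the label of neuron rests on the gate alone, and the other markers of most of them went against it. One held 38 oligodendrocyte marker, 1 pan-neuronal and 2 gate UMIs, and another 17 ependymal marker, 4 pan-neuronal and 2 gate UMIs. Without these 9 cells, 2019 genes were higher and 1946 lower than in other neurons, of 11548 tested. No UMI of Slc32a1, the vesicular transporter of GABA and glycine, was found in any of the 106 cells, against 24.3 and 26 CPM in other neurons. Gad2, which makes GABA, was present at 48.6 and 33.6 CPM against 102 and 118 in other neurons. In library 2 its 25 UMIs lay in 10 of the 94 gated cells. Tph2 (serotonergic), Slc6a3 (dopaminergic) and Chat (cholinergic) summed to 3, 1 and 1 UMIs, but they were at or under 4.92 CPM in other neurons too, so they say little about the label.

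Transcripts of other cell types were also counted, since a droplet can hold a neighbour or free RNA. Of 38 markers of glia, ependyma and vessels, 10 were at 0 UMIs in all 106 cells and 9 lay above their level in other neurons in both libraries. Those at 0 were Gfap (astrocytes), Cspg4, Olig1 and Olig2 (oligodendrocyte precursors), C1qa, C1qb and Csf1r (microglia) and Ly6c1, Dcn and Lum (vessels and fibroblasts), of which C1qa, C1qb, Dcn and Lum were at or under 3.35 CPM in non-neuronal cells as well. Among those above were Plpp3 (astrocytes, 16.2 and 22.8 CPM against 5.6 and 13.1 in other neurons), Cfap299 (ependyma, 16.2 and 18.8 against 4.76 and 8.2), Cx3cr1 (microglia, 2.02 and 5.37 against 0.56 and 2.46) and Col1a2 (fibroblasts, 4.05 and 4.03 against 0 and 0.82). Summed over each type's markers, the gated cells stood at 259 and 451 CPM for oligodendrocytes against 147 and 316 in other neurons, at 18.2 and 29.5 against 8.68 and 20.2 for astrocytes, and at 27.3 and 47 against 18.7 and 30.6 for ependyma. The sums for oligodendrocyte precursors were 2.02 and 1.34 CPM against 3.36 and 5.46, and those for vessels 15.2 and 37.6 against 24.9 and 35.8. In non-neuronal cells the oligodendrocyte, astrocyte and ependymal sums were far higher, at 19171 and 15374, 787 and 601, and 2374 and 800 CPM. The myelin gene Mobp was present at 6.07 and 30.9 CPM, against 7.27 and 13.7 in other neurons and 2038 and 1539 in oligodendrocytes. In library 1 a single gated cell held 217 oligodendrocyte marker UMIs, and another held 42 of the 48 UMIs of the GABA-synthesising gene Gad2. In library 2, 5 gated cells had 23 to 68 oligodendrocyte marker UMIs each. Without the gated cells that held 20 or more oligodendrocyte, inhibitory or glutamatergic marker UMIs, 1911 genes were higher and 1826 lower than in other neurons, of 11539 tested, close to the counts with all cells given below.

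Depth differed strongly between the libraries and between the classes. The gated cells had a median of 83596.5 UMIs and 9330 genes in library 1, and 6411.5 UMIs and 2778.5 genes in library 2. Their summed depth was less uneven, at 987938 and 744567 UMIs. The comparison classes, taken outside the gate by neuronal and non-neuronal marker transcripts, were 186 and 1074 other neurons and 85 and 1161 non-neuronal cells. Median depth was 13776 and 2385.5 UMIs in other neurons and 8350 and 1346 in non-neuronal cells. The glutamatergic neurons among the others were the class nearest in depth, at medians of 18895.5 and 6631 UMIs. Mitochondrial transcripts made up a median of 3.69% and 7.50% of UMIs in the gated cells against 2.07% and 4.25% in other neurons. No barcode was shared between the libraries.

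UMIs were summed per class and library, and the sums were compared with edgeR's quasi-likelihood test with the library as a block, so n was 2 libraries and the residual degrees of freedom were 1. Against other neurons, 2072 of 11568 genes tested were higher (17.9%) and 2017 lower (17.4%) at an adjusted p of 0.05, and 950 rose (8.21%) and 1281 fell (11.1%) by at least 2-fold. Of the 4089 genes called (35.3%), 4067 moved the same way in both libraries (35.2% of those tested). Because depth moved with the class, each group of genes below is also given against a deeper class, the other neurons with at least the lowest UMI count of the library's gated cells. DESeq2, with the same block, called 548 higher (2.55%) and 632 lower (2.94%) of 21477 genes. It was run without the low-count filter, so its list counts below are often out of more genes. The edgeR test without the library block called 1331 higher (11.5%) and 1359 lower (11.7%). In the list counts below, both settings are given where they differ by more than 1.5 times. The deeper class kept 23 cells in library 1 and 1055 in library 2, with 9858 genes tested, 872 higher (8.85%) and 1068 lower (10.8%). It narrowed the gap in depth in library 1, to a median of 51591 UMIs against 83596.5 in the gated cells, but hardly in library 2, at 2400 against 6411.5, so depth was not equal in either. The shares over all genes in this paragraph are the background for the list counts below. The lists and their members were chosen with earlier results of these data known. An excess of a list over these shares is therefore a description and no independent support.

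Of the 12 largest rises, Maoa, Ddc, Cyb561 and Qdpr were genes of the amine list, and Slc10a4, Chodl, Fibcd1, Pgr15l, Eya2, Gabre and Gpx3 were not. Slc10a4, an orphan transporter of the bile acid family found on monoamine vesicles, stood at 297 and 201 CPM in the gated cells of libraries 1 and 2, against 5.87 and 6.01 in other neurons, a log2 difference of 5.31 ± 0.23 (SE). It lies at chr5:73006883-73012955 on GRCm38. Chodl, which encodes the membrane lectin chondrolectin, stood at 232 and 122 CPM against 3.36 and 4.92 (log2 5.31 ± 0.26), at chr16:78930948-78951733. These were the 2 largest rises among genes of at least 100 CPM, with edgeR adjusted p-values of 4.09e-112 and 7e-88, and the lower gated library was above both other-neuron libraries for each.

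Maoa, monoamine oxidase A of the mitochondrial outer membrane, stood at 818 and 520 CPM against 28.5 and 24.9 in other neurons (log2 4.57 ± 0.18, adjusted p = 1.25e-142), at chrX:16619698-16687818. Per cell it ran from 2.71 to 11.2 UMIs per 10000 in library 1 with a median of 8.57, and in library 2 the median was 3.62 and the highest 14.4. Every cell of library 1 therefore held it, as did 66 of 94 in library 2. Ddc, the decarboxylase of the pathway, stood at 500 and 270 CPM against 22.4 and 18.9 (log2 4.13 ± 0.18), at chr11:11814101-11898144. Cyb561, a vesicle membrane cytochrome that returns electrons to ascorbate, the cofactor of Dbh, stood at 637 and 517 CPM against 52.9 and 32.5 (log2 3.73 ± 0.17), at chr11:105933702-105953336. Its lowest cell in library 1 held 3.77 UMIs per 10000 and its highest 8.73.

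Qdpr, the dihydropteridine reductase that restores tetrahydrobiopterin, the cofactor of Th, stood at 250 and 175 CPM against 24.9 and 21.6 in other neurons (log2 3.13 ± 0.19). It was also present in non-neuronal cells, at 90.4 and 89.1 CPM. Gpx3, a secreted glutathione peroxidase, stood at 349 and 486 CPM against 39.2 and 48.4 (log2 3.20 ± 0.17), at chr11:54902453-54910377, and was, unlike most of this group, higher in library 2. Fibcd1, which encodes a membrane protein that binds acetylated sugars, stood at 151 and 129 CPM against 5.87 and 10.7 (log2 4.04 ± 0.24). Eya2, a transcriptional coactivator with phosphatase activity, stood at 223 and 271 CPM against 28 and 17.8 (log2 3.38 ± 0.19). Gabre, the epsilon subunit of the GABA-A receptor, and Pgr15l were also among the 12, at log2 3.35 ± 0.24 and 3.45 ± 0.25. Inhibitory and glutamatergic neurons, split by transmitter transcripts, were both far below the gated cells, with Maoa at 26.2 and 20.6 CPM in inhibitory and 31.2 and 28.5 in glutamatergic cells, and Slc10a4 at 3.27 and 0 against 5.68 and 4.6. All 12 genes were detected in each of the 12 cells of library 1, and in 31 (Gabre) to 73 (Cyb561) of the 94 cells of library 2.

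**Figure D2:**
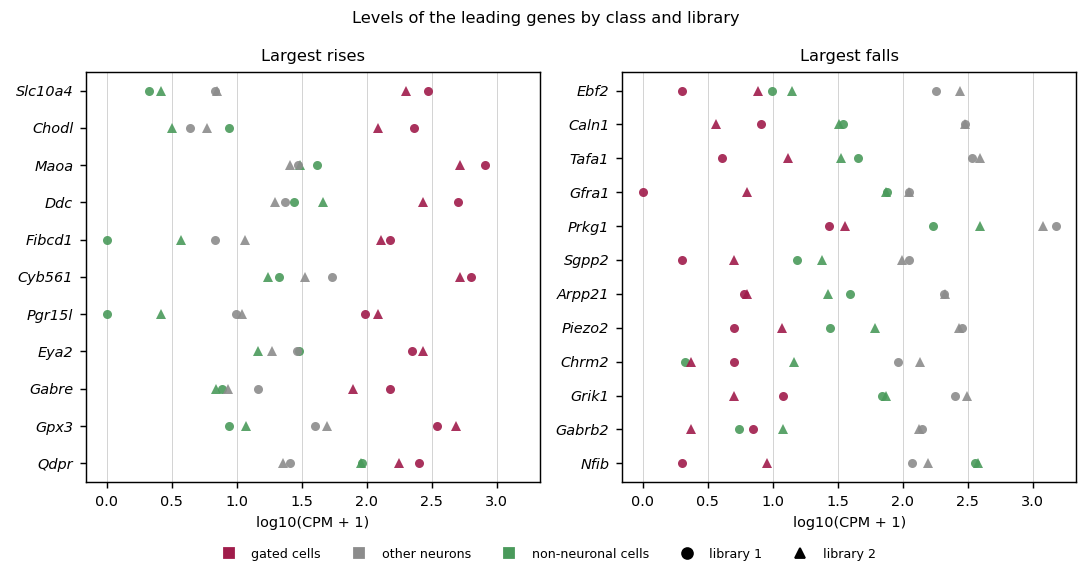
Of the 12 largest rises 11 (left), and the 12 largest falls (right), against other neurons are plotted as log10 of CPM + 1, with a circle for library 1 and a triangle for library 2. In every row on the left both gated libraries (red) lie above both libraries of other neurons (grey), and in every row on the right both lie below. Qdpr on the left and Nfib on the right are genes that non-neuronal cells (green) also held, at 90.4 and 89.1 CPM for Qdpr and 357 and 379 CPM for Nfib.

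To see these genes at equal depth, each cell was thinned to 2000 UMIs, which left out no gated cell in library 1 and 20 in library 2. Maoa was then seen in 8 of 12 gated cells (66.7%) and 44 of 74 (59.5%), against 11 of 186 (5.91%) and 37 of 639 (5.79%) other neurons. In oligodendrocytes thinned alike, a UMI of Maoa was found in 0 of 40 cells, which allows a share of cells with a UMI at this depth of up to 7.5%, and in 5 of 214 (2.34%). Without thinning, 3 of 40 (7.5%) and 17 of 756 (2.25%) oligodendrocytes held one. Cyb561 was seen in 10 of 12 (83.3%) and 47 of 74 (63.5%) gated cells and, at this depth, in 0 of 40 and 0 of 214 oligodendrocytes, which allows shares with a UMI of up to 7.5% and 1.4%, while 3 of 40 (7.5%) and 12 of 756 (1.59%) held one without thinning. Gpx3 was seen in 6 of 12 (50%) and 47 of 74 (63.5%) gated cells, against 0 of 40 and 2 of 214 (0.935%) oligodendrocytes. Qdpr was seen in 4 of 12 (33.3%) and 22 of 74 (29.7%) gated cells, against 12 of 186 (6.45%) and 29 of 639 (4.54%) other neurons. Oligodendrocytes also held Qdpr, at 168 and 124 CPM and in 11 of 40 (27.5%) and 53 of 214 (24.8%) cells, and so give no background for it. Without thinning, 66, 73, 70 and 50 of the 94 cells of library 2 held Maoa, Cyb561, Gpx3 and Qdpr.

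Of the 14 tested genes of amine synthesis, its cofactor and amine breakdown, other than the gate genes, 10 rose, 1 fell and 3 did not pass, with a median log2 difference of 1.94 against -0.01 over all genes tested. Against the deeper class 7 of 13 rose and 1 fell, and with DESeq2 7 of 17 rose and none fell. Together these genes took 0.260% and 0.177% of the gated cells' UMIs and 0.0296% and 0.0253% of those of other neurons. Gch1, which starts the synthesis of tetrahydrobiopterin, stood at 94.1 and 101 CPM against 5.6 and 5.19 (log2 4.11 ± 0.28). Its values, like those of the other genes in the rest of this paragraph, are given after they were seen. Along the same cofactor route Pts (log2 1.48 ± 0.50), Spr (0.72 ± 0.28) and Pcbd1 (2.92 ± 0.36) rose with Gch1 and Qdpr. All 5 tested steps of making and recycling the cofactor were therefore called higher than in other neurons. The call for Pts rested on 19 and 5 UMIs in the gated cells of libraries 1 and 2. Spr (edgeR adjusted p = 0.0327) stood at 42.5 and 33.6 CPM there, against 25.9 and 46 in glutamatergic neurons, the class nearest in depth. In library 2 Spr was therefore lower in the gated cells than in glutamatergic neurons. Among breakdown genes Maob, the other monoamine oxidase, stood at 29.4 and 24.2 CPM against 5.04 and 4.65 (log2 2.41 ± 0.40) and Akr1a1, an aldehyde reductase, rose by 0.97 ± 0.22. Aldh2, an aldehyde dehydrogenase, fell, to 11.1 and 5.37 CPM, against 25.5 and 27.9 CPM in other neurons (log2 -1.68 ± 0.39), a call that DESeq2 did not make. Aldh9a1 (log2 -0.89) and Slc18a1 (0.66) did not pass the test.

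Of 12 noradrenergic fate factors measured, 7 had enough UMIs to test, and 3 rose and 2 fell against all other neurons. Of 6 tested against the deeper class 3 rose and 1 fell, and of 11 with DESeq2 3 rose and 1 fell. Phox2a stood at 91.1 and 65.8 CPM against 1.68 and 0.82 (log2 5.87 ± 0.38, adjusted p = 2.28e-50). Tfap2b, an AP-2 factor of the noradrenergic lineage, stood at 172 and 247 CPM against 49.8 and 64.2 (log2 1.82 ± 0.17). Tlx3 had a gated to other-neuron ratio of 0.0668 (exact interval 0.00800 to 0.246), and Tfap2a, with 0 UMIs in the gated cells and 57 in other neurons, was at least 4.55-fold lower, which DESeq2 did not call. En1 (log2 -0.55, adjusted p = 0.374) and En2 (0.28, adjusted p = 0.602), which pattern the midbrain-hindbrain boundary, did not pass.

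Transcription factors of other hindbrain neurons moved the other way. Of 37 tested, 30 fell and 1 rose, with a median log2 difference of -3.55 (-3.07 with genes at 0 UMIs set to their bounds). Against the deeper class 20 of 30 fell and 1 rose. With DESeq2 19 of 42 fell and none rose, and without the library block 26 of 37 fell and none rose. Foxp2 and Bnc2 were at least 37.4-fold and 56.0-fold lower in the gated cells, and the LIM factors Lhx1 and Lhx5 at least 8.06-fold and 8.38-fold lower. Pou4f1 had a ratio of 0.0250 (0.000629 to 0.141) and Onecut1 of 0.0305 (0.00367 to 0.111). Meis2 was the member that rose, from 291 and 319 CPM to 466 and 379 (log2 0.42 ± 0.15, adjusted p = 0.0141), and it did not pass against the deeper class, with DESeq2, without the library block, without the low-count filter or with comparison cells of at least 5000 UMIs thinned to 5000. Lmx1b, which also marks serotonergic neurons, did not pass (57.7 and 87.3 CPM against 48.1 and 69.1). The members not named in the rule of selection were chosen after their values were seen.

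Among the 12 largest falls 2 were transcription factors. Ebf2, a helix-loop-helix factor, stood at 1.01 and 6.72 CPM in the gated cells, which were 1 and 5 UMIs, against 178 and 273 CPM in other neurons (log2 -6.01 ± 0.32). Nfib, a nuclear factor also held by glia, stood at 1.01 and 8.06 CPM against 117 and 155 (log2 -5.08 ± 0.34). Of signalling genes, Prkg1, the cyclic GMP-dependent kinase, fell from 1502 and 1203 CPM to 26.3 and 34.9 (log2 -5.54 ± 0.20, adjusted p = 2.49e-160). Gfra1, the co-receptor for the growth factor GDNF, stood at 0 and 5.37 CPM against 110 and 110 (log2 -5.58 ± 0.39), Piezo2, a mechanically gated channel, at 4.05 and 10.7 against 285 and 269, and Arpp21, a cyclic AMP-regulated phosphoprotein, at 5.06 and 5.37 against 206 and 211. Receptor genes that mark other neurons fell too, with Chrm2, the M2 muscarinic receptor, at log2 -5.27 ± 0.38, the kainate receptor gene Grik1 at -5.14 ± 0.27, and the GABA-A subunit gene Gabrb2 at -5.12 ± 0.34. The secreted protein gene Tafa1 (-5.75 ± 0.27), the calcium-binding Caln1 (-5.89 ± 0.29) and the sphingosine phosphatase gene Sgpp2 (-5.51 ± 0.40) made up the 12.

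The fall of Piezo2 stood against glutamatergic cells, which held 410 and 801 CPM against 6.54 and 24.1 in inhibitory ones, and that of Nfib against inhibitory cells, at 281 and 368 CPM against 46.2 and 53.4 in glutamatergic ones. Several of the few remaining UMIs of these genes sat in single cells. In library 1, 6 of the 7 Caln1 UMIs were in the cell that also held the 217 oligodendrocyte marker UMIs, and 8 of 11 Grik1 and 5 of 6 Gabrb2 UMIs were in another cell. That second cell held 37 of 37 Ebf1 UMIs and 40.7% of the Kcnd2 UMIs of the library. Its gate level, 43.1 UMIs per 10000, was the lowest of the 12. A part of another neuron's RNA in this droplet was not tested.

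Of 90 tested genes for sodium, potassium and calcium channels, out of 137 listed, 18 rose and 47 fell (median log2 -0.65), and against the deeper class 12 of 82 rose and 33 fell. Of 126 such genes, DESeq2 called 9 higher (7.14%) and 22 lower (17.5%). Kcnab1, a cytoplasmic subunit of potassium channels, stood at 461 and 568 CPM against 116 and 143 (log2 1.94 ± 0.15), and Kcnk9, a leak potassium channel, at 311 and 301 against 84.8 and 91 (1.75 ± 0.16). Kcnd2, the A-type channel Kv4.2, fell from 1326 and 1041 CPM to 206 and 77.9 (log2 -3.17 ± 0.16). Of further channels, chosen after their values were seen, Cacng3 and Kcnn3 were higher by 1.85 and 1.28. The share that rose, 20%, was near the 17.9% of all genes tested, and the share that fell, 52.2%, stood beside 17.4%.

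Of 85 genes of cyclic nucleotide and G protein signalling, 30 rose and 22 fell, with a median of 0.10, and 19 and 15 of 81 against the deeper class, and 13 and 13 of 105 with DESeq2. Rgs4, which shortens G protein signals, stood at 180 and 218 CPM against 47.6 and 30.6 (log2 2.30 ± 0.18), and the G protein gamma subunit gene Gng4 rose by 1.70 ± 0.17. Rgs6 fell from 343 and 384 CPM to 26.3 and 41.6 (log2 -3.49 ± 0.20), and the calcium-stimulated adenylyl cyclase Adcy8 from 134 and 163 to 12.1 and 14.8 (-3.51 ± 0.26). Calcium buffers and stores also moved in both directions, with 9 of 27 higher and 15 lower (4 of 25 and 11 against the deeper class, 5 and 12 of 28 with DESeq2). The calcium sensors Hpcal1 (420 and 258 CPM against 116 and 77.6, log2 1.75 ± 0.16) and Hpcal4 (1.83 ± 0.18) rose, and the ryanodine receptor gene Ryr3 fell (42.5 and 26.9 against 260 and 289, -3.00 ± 0.20). The buffer gene Pvalb had a ratio of 0.00592 (exact interval 0.000150 to 0.0331).

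Genes of cell contacts and wiring fell more often than they rose. Of 83 cadherins, contactins and other synaptic adhesion genes 9 rose and 45 fell (median log2 -0.89), and of 77 against the deeper class 7 rose and 32 fell, and with DESeq2 5 and 31 of 99. Nxph4, a ligand of neurexins, stood at 326 and 242 CPM against 41.7 and 36.6 (log2 2.80 ± 0.17), while its relative Nxph1 fell from 270 and 346 to 20.2 and 10.7 (-4.28 ± 0.23) and the synaptic organiser Lrrtm4 from 1581 and 1627 to 72.9 and 125 (-4.11 ± 0.17). Of the 20 Nxph1 UMIs in library 1, 15 were in the cell that held the Gad2 UMIs. Of 55 axon guidance genes 2 rose and 37 fell (median -1.30, 2 and 25 of 48 against the deeper class, 2 and 18 of 70 with DESeq2). The ephrin receptor gene Epha5 stood at 517 and 599 CPM against 262 and 347 (0.84 ± 0.14) and the netrin receptor gene Unc5d at 1035 and 1154 against 732 and 759 (0.50 ± 0.14), a rise that did not pass in either setting with thinned comparison cells. Sema5a fell from 152 and 187 CPM to 5.06 and 8.06 (-4.75 ± 0.30). Of 36 extracellular matrix genes tested, of 77 listed, 3 rose and 17 fell (2 and 8 of 22 against the deeper class, 0 and 4 of 74 with DESeq2, 1 and 14 without the library block). Col6a5 was higher (15.2 and 17.5 CPM against 2.24 and 4.37) and tenascin R, Tnr, lower (45.5 and 5.37 CPM against 146 and 213, -2.73 ± 0.22), neither of them called by DESeq2.

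Of 48 genes of vesicle fusion and the active zone, 17 rose and 12 fell (median log2 0.18), and 11 and 9 of 47 against the deeper class, with 10 and 8 of 50 in DESeq2 and 10 and 10 without the library block. Slc10a4 led them, and Syt17 followed at 270 and 231 CPM against 31.1 and 37.4 (2.83 ± 0.18). Sv2b, a vesicle glycoprotein, fell from 173 and 142 CPM to 10.1 and 40.3 (-2.80 ± 0.23), and the fast calcium sensor Syt2 from 139 and 140 to 45.5 and 28.2 (-1.95 ± 0.21). The paralogue Sv2c rose by 1.49 and the sensor Syt4 by 1.31, both chosen after their values were seen. The vesicle proton pump, which supplies the gradient that Slc18a2 uses, moved one way: 13 of 19 subunits rose and none fell (median 0.67, 7 of 18 and none against the deeper class, 7 of 22 and none with DESeq2, 8 and none without the block). Atp6v1g1 stood at 220 and 184 CPM against 46.2 and 36.1 (2.25 ± 0.18) and Atp6v0c at 435 and 361 against 162 and 156 (1.27 ± 0.15). Of 7 tested genes of other transmitter identities 6 fell and none rose (3 of 5 against the deeper class, 4 of 14 with DESeq2), and none was higher at an unadjusted p of 0.05. Slc17a6, a vesicular glutamate transporter, stood at 11.1 and 8.06 CPM against 172 and 124 (-3.99 ± 0.28).

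Of 17 genes handling copper, iron and zinc, 7 rose and 1 fell (median log2 0.40), and 5 and 2 against the deeper class, with 3 of 22 and none in DESeq2. Copper is the metal of Dbh, and its importer gene Slc31a1 stood at 72.9 and 53.7 CPM against 12.3 and 23.5 (1.82 ± 0.26). The copper pump Atp7a (35.4 and 64.5 CPM, log2 1.32 ± 0.27) and the copper chaperone Atox1 (1.26 ± 0.26) rose as well, and both were chosen after their values were seen. The copper chaperone genes Ccs (log2 -0.31) and Cox17 (0.40) did not pass. Mt3, the brain metallothionein, stood at 331 and 410 CPM against 107 and 172 (1.39 ± 0.15). The vesicular zinc transporter Slc30a3 had a ratio of 0.139 (exact interval 0.0165 to 0.525), which DESeq2 did not call, and Tfrc, the transferrin receptor gene, at log2 -0.55, did not pass.

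Of 21 antioxidant genes, 13 rose and none fell (median log2 0.92), but 5 rose against the deeper class, where the median was 0.48, and 4 of 26 with DESeq2. Besides Gpx3, Prdx1, a peroxiredoxin, stood at 165 and 59.1 CPM against 38.9 and 26.0 (1.67 ± 0.21). The glutamate-cysteine ligase genes Gclc and Gclm, chosen after their values were seen, were higher by 1.34 and 0.96. Cat and Sod2 did not pass the test, at 0.71 and 0.19.

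Fewer genes of the ribosomal, respiratory and mitochondrial lists were called against the deeper class than against all other neurons. Of 82 cytosolic ribosomal protein genes 55 rose and none fell, with a median log2 difference of 0.59, and 3 rose against the deeper class, 5 of 83 with DESeq2 and 23 without the library block. The ribosomal medians against the deeper class were -0.16 in library 1 and 0.75 in library 2, compared with 0.37 and 0.79 against all other neurons. Of 77 nuclear-encoded respiratory chain genes 28 rose and 1 fell (median 0.35), and 0 rose and 0 fell against the deeper class, where library 1 had a median of -0.24 and 3 genes were higher and 3 lower at an unadjusted p of 0.05. With DESeq2 2 of 82 rose, and 11 of 77 without the block. Of the 13 protein genes of the mitochondrial genome 8 rose (median 0.50), and 0 did with edgeR against the deeper class (1 at an unadjusted p of 0.05) or without the library block, while DESeq2 called 6. Glycolysis and lactate genes had 10 of 19 higher and 2 lower, and 5 and 1 against the deeper class, 7 and 0 with DESeq2 and 8 and 1 without the block. Ldha, a lactate dehydrogenase, stood at 194 and 73.9 CPM against 49 and 35.3 (1.56 ± 0.20), whereas its partner Ldhb fell by 0.75 on the log2 scale, a call lost with DESeq2, without the block, with at most 10% mitochondrial UMIs and with thinned comparison cells. The part of depth in these groups was not tested beyond these values.

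Of 25 genes of folding and translocation in the endoplasmic reticulum 18 rose and none fell (median 0.91), and 13 of 24 and none against the deeper class. Calr, the calcium-binding chaperone, stood at 310 and 348 CPM against 134 and 143 (1.19 ± 0.15), and Pdia3, a disulfide isomerase, at 245 and 133 against 79.5 and 62.6 (1.33 ± 0.17). Cytosolic chaperones had 15 of 25 higher (7 of 24 against the deeper class), and proteasome and ubiquitin genes 19 of 40 (4 of 39), with none lower in any of the 4 counts. Against the deeper class the share of proteasome and ubiquitin genes that rose, 10.3%, was near the 8.85% of all genes tested there, and the shares of endoplasmic reticulum genes and chaperones were 54.2% and 29.2%. DESeq2 called 7 of 26 endoplasmic reticulum genes, 9 of 27 chaperones and 7 of 42 proteasome and ubiquitin genes higher. In the antioxidant, ribosomal, mitochondrial genome, motor, proton pump and 3 folding and breakdown lists, where none fell against all other neurons, none was lower there at an unadjusted p of 0.05 or by DESeq2 either. Uchl1, a ubiquitin hydrolase of neurons, stood at 1012 and 904 CPM against 396 and 359 (1.30 ± 0.14).

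**Figure D3:**
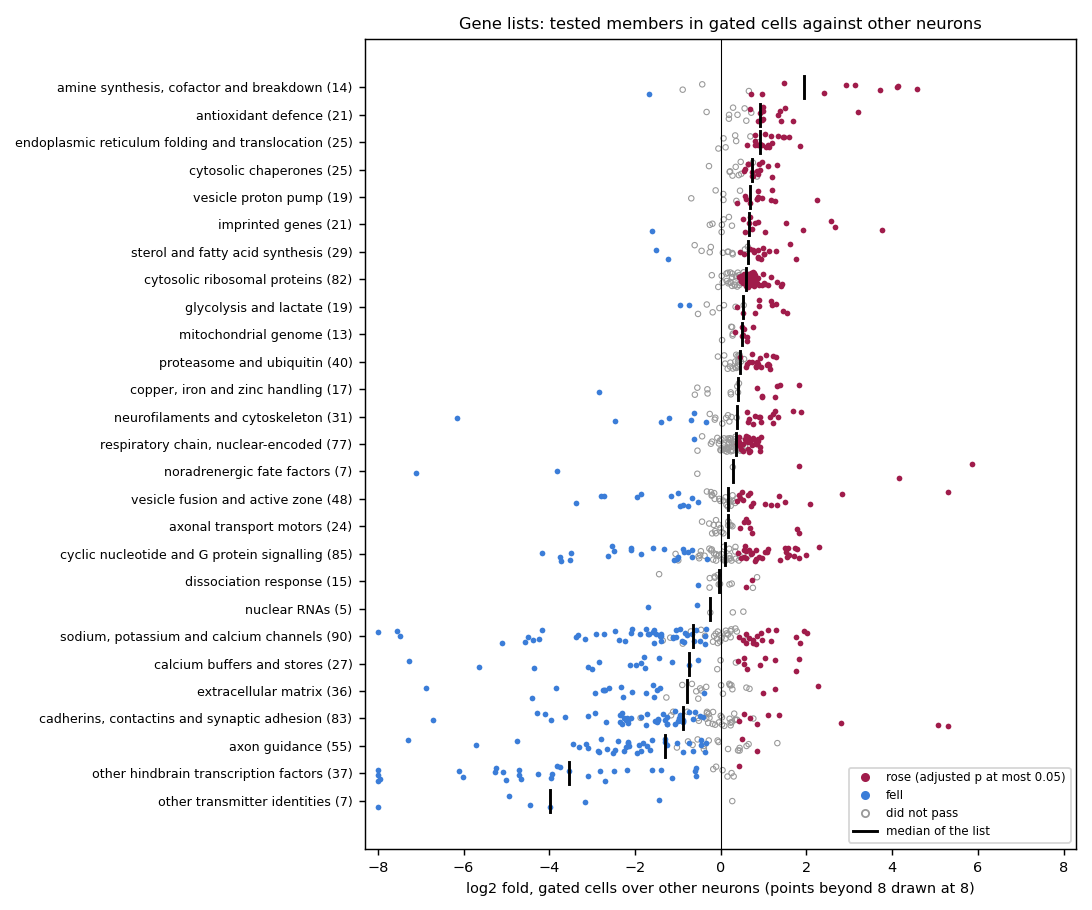
For each gene list, points are the log2 differences of its tested genes between the gated cells and other neurons, red where they rose, blue where they fell and open where they did not pass, with a bar at the median and the number tested in brackets. The medians run from 1.94 for the amine list at the top to -3.99 for other transmitter identities at the bottom, and genes with 0 UMIs in the gated cells are drawn at their fitted values, which are no bounds.

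Of 31 genes of the neurofilaments and cytoskeleton 15 rose and 7 fell (7 and 5 against the deeper class). Tubb3, a neuronal tubulin, stood at 673 and 477 CPM against 217 and 245 (1.26 ± 0.15) and Tubb2a at 369 and 300 against 120 and 83.1 (1.68 ± 0.16). The heavy neurofilament gene Nefh fell from 325 and 392 CPM to 48.6 and 88.6 (-2.47 ± 0.18), and the medium and light ones, Nefm and Nefl, fell by 1.20 and 0.63, both chosen after their values were seen. All 3 neurofilament genes were therefore lower while these 2 tubulin genes were higher. Prph, peripherin, had a ratio of 0.0142 (exact interval 0.00171 to 0.0514). Of 24 motor genes for axonal transport 8 rose and none fell (2 and none against the deeper class, 5 and none with DESeq2), led by the dynein light chains Dynll1 (247 and 177 CPM against 70.8 and 48.6, 1.78 ± 0.17) and Dynlt3 (150 and 120 against 38.6 and 34.2, 1.84 ± 0.20). The share of motor genes that rose was 33.3%, beside 17.9% of all genes tested. Against the deeper class it was 8.33%, near the 8.85% of all genes tested there. Sterol and fatty acid synthesis had 16 of 29 higher and 2 lower (5 and 2 of 27 against the deeper class, 8 and 0 with DESeq2), with Acly, which makes cytosolic acetyl-CoA, at 313 and 278 CPM against 103 and 84.7 (1.61 ± 0.16). Of 21 imprinted genes 13 rose and 1 fell (11 and 0 against the deeper class, 9 and 0 of 23 with DESeq2, 10 and 0 without the library block). Dlk1, a secreted and membrane-bound ligand-like protein, stood at 518 and 500 CPM against 58.2 and 101 (2.67 ± 0.16).

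Gene length moved with these differences. The 2195 tested genes under 10 kb had a median log2 difference of 0.42, with 29.8% higher and 5.56% lower, and the 935 genes over 200 kb a median of -0.46, with 12.7% higher and 50.4% lower. In between, the 5270 genes of 10 to 50 kb had a median of 0.02 and the 3168 of 50 to 200 kb one of -0.21. The trend was the same in both libraries, with medians of 0.39 and 0.43 in the shortest bin and -0.48 and -0.45 in the longest, and against the deeper class (0.32 to -0.41). The median length was 3.27 kb for ribosomal genes and 7.28 kb for respiratory genes, and 139 kb, 165 kb and 133 kb for hindbrain transcription factors, adhesion and guidance genes. Within bins, 4 of 4 hindbrain factors under 10 kb fell, as did 14 of 17 of 50 to 200 kb, while 51 of 78 ribosomal genes under 10 kb rose. The part of length in the list results was not tested further.

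**Figure D4:**
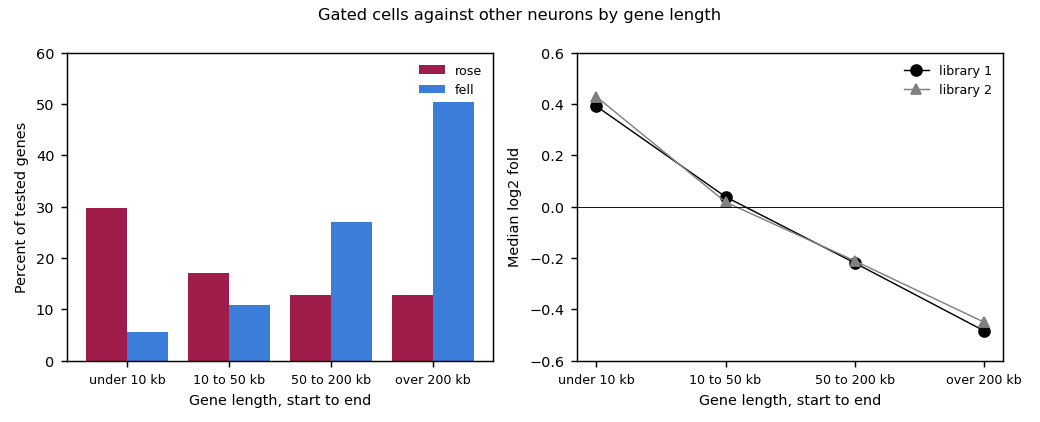
Left, bars give the percent of tested genes in 4 bins of gene length that rose or fell in the gated cells against other neurons, and right, points give the median log2 difference of each bin in each library. The share that rose goes from 29.8% under 10 kb to 12.7% over 200 kb, and the share that fell from 5.56% to 50.4%.

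Of 15 tested genes known to respond to tissue dissociation, 2 rose and 1 fell (median log2 -0.05), and none passed in edgeR against the deeper class (0 also at an unadjusted p of 0.05), with DESeq2 or without the library block. Jund stood at 263 CPM in the gated cells of library 1 and 599 in library 2, against 250 and 271 in other neurons, so its rise (0.58 ± 0.15), which those settings did not call, lay in library 2. The nuclear RNA Malat1 did not pass (7803 and 12218 CPM against 10831 and 11552, log2 -0.24, adjusted p = 0.152), and Rmst fell from 292 and 371 CPM to 97.2 and 113 (-1.70 ± 0.17).

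Against non-neuronal cells, 2740 of 10033 genes tested were higher (27.3%) and 2997 lower (29.9%). Among the 6 largest rises, Tfap2b stood at 172 and 247 CPM against 0 and 1.63 (log2 7.35 ± 0.50), with Slc10a4 (7.02 ± 0.46), Pgr15l (6.37 ± 0.54), Fibcd1 (5.98 ± 0.49) and Gabrq (5.91 ± 0.47) also among them. The gene Ak9 was at least 70.1-fold lower and the hypoxia factor Epas1, which endothelium and glia hold, at least 70.3-fold lower, which DESeq2 did not call, while Sox6 had a ratio of 0.00510 (0.000617 to 0.0185) and Heg1 of 0.00304 (7.68e-05 to 0.0170). Vesicle fusion genes rose in 36 of 46 tests and fell in 2, and channels in 50 of 77 and 14. Proton pump subunits rose in 16 of 18 tests and respiratory genes in 58 of 75, with median log2 differences of 1.84 and 1.27. Genes of the mitochondrial genome did not pass in any of 13 edgeR tests, with a median of 0.06, 2 were higher at an unadjusted p of 0.05, and DESeq2 called 0. Extracellular matrix genes fell in 24 of 34 tests, axon guidance genes in 25 of 50, and dissociation-response genes in 10 of 14.

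Among the highest levels in the gated cells were RNAs abundant in every class. Gm42418, a locus that overlaps ribosomal RNA, took 100309 and 55545 CPM in the gated cells and 140390 and 93929 in other neurons (log2 -0.67 ± 0.14). The splicing factor gene Rbfox1 stood at 4764 and 6192 CPM against 2663 and 3299 (0.83 ± 0.13, adjusted p = 1.06e-08), and Lrp1b, a lipoprotein receptor gene, at 2652 and 3050 against 1248 and 1394 (1.06 ± 0.13, adjusted p = 9.97e-14). Oligodendrocytes also held Lrp1b, at 2294 and 2295 CPM, and held less Rbfox1, at 371 and 214. Both genes are among the longest in the genome.

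Variation among the gated cells was described after thinning to 2000 UMIs, as the Fano factor, the variance of the count over its mean, which is 1 for Poisson sampling. Over genes detected often enough its median was 0.909 in library 1 and 1.07 in library 2. Beyond Gm42418 (20.5 in both libraries) and other abundant RNAs, Robo1, a guidance receptor gene, stood at 3.92 in library 2, with UMIs in 43 of 74 cells. These are values from 12 and 74 cells and carry no test.

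The libraries differed in a minority of the gated cells' genes. Among 2195 genes of at least 100 CPM in either library, 35 were at least 2-fold higher in library 2 and 13 in library 1, on a scale of log2(CPM + 10). Of the 35, 16 were cytosolic ribosomal protein genes, out of 51 of that family among the 2195, and none of the 13 were. Rpl36 stood at 155 CPM in library 1 and 414 in library 2, and Stmn4, a tubulin-binding protein gene, at 109 and 302. In the other direction Kcnd2 stood at 206 and 77.9, with 40.7% of its library 1 UMIs in 1 cell, Ldha at 194 and 73.9, Prdx1 at 165 and 59.1 and Tuba1b at 652 and 304. In other neurons 1 gene of each direction, AC149090.1 and Cdk8, differed by at least 2-fold the same way. The 16 ribosomal genes were also higher in library 2 in other neurons, by less than 2-fold. Their log2 ratios there ran from 0.05 (Rps20) to 0.77 (Rps12), against 1.00 (Rpl3) to 1.36 (Rpl36) in the gated cells. With 1 library of each kind these differences have no replicate.

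**Figure D5:**
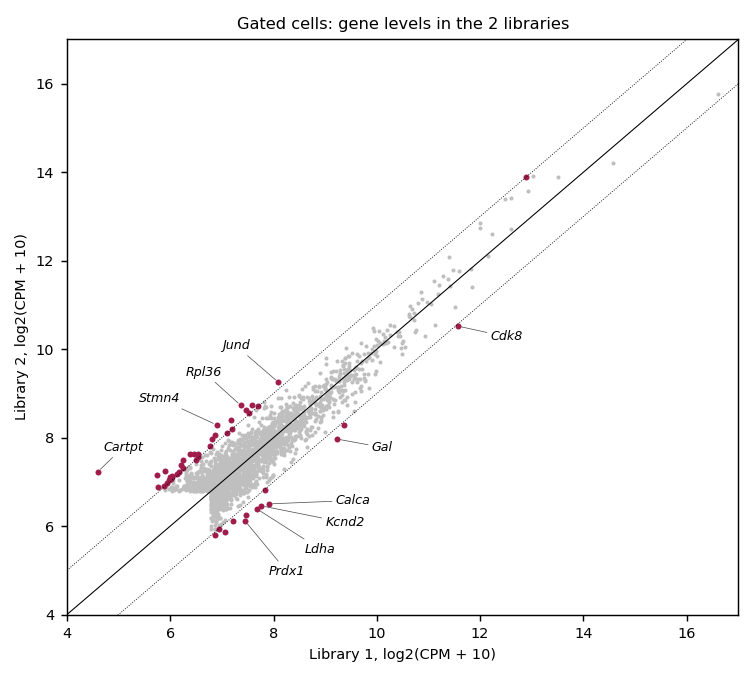
Each point is a gene of at least 100 CPM in either library, with its level in the gated cells of library 1 on the horizontal and of library 2 on the vertical axis, both as log2(CPM + 10), and the dotted lines mark a 2-fold difference. Of the 2195 genes, 35 lie on or above the upper line and 13 on or below the lower one, all drawn in red.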

How the data were processed

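Single-cell 3' RNA sequencing of locus coeruleus tissue was deposited as 2 matrices of whole-number UMI counts, made by the authors with Cell Ranger (version 6.1.2 per the file headers, 7.0 per the submitters' processing notes, with Seurat) on mm10 and filtered to 3100 barcodes. Whether intronic reads were counted is not given in the sources used here. Counts were summed per class and library and fitted with edgeR 4.0.16 (R 4.3.3; TMM, filterByExpr, library as a block, two-sided, Benjamini-Hochberg over all genes tested), after tests on simulated data. With 2 libraries that nothing ties to separate animals, p-values measure only how far the class differences varied between these libraries, which may be technical. With 1 residual degree of freedom they rest on the spread shared across genes. Class totals were 987938 and 744567 UMIs in the gated cells, 3574498 and 3659313 in other neurons and 895797 and 1841089 in non-neuronal cells.

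Other neurons were barcodes outside the gate with at least 5 UMIs of 10 pan-neuronal genes and at least 2 times as many of these as of 38 non-neuronal markers, and non-neuronal cells the reverse. Inhibitory or glutamatergic cells needed 2 transmitter UMIs, and 423 barcodes fell in no class. The 4 gate genes and these 48 markers stayed in the library sizes and out of the tests. Doublets were kept, and removing the highest Scrublet scores (scanpy 1.11.5) was an alternative. Genes with 0 UMIs in the gated cells are given as bounds from 3 UMIs over both libraries, and those with 1 to 3 UMIs as pooled ratios with exact intervals.

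Against other neurons the 12 largest rises and falls were named among called genes of at least 100 CPM with the same sign in both libraries, against non-neuronal cells 6 each, then up to 2 rises and 2 falls for each of 27 gene lists, each tested fate factor and the 20 highest levels. The members and lists were chosen with earlier results of these data known. Neuropeptide and receptor lists are not described, and some genes that the rule names are not reported here. Positions are from GENCODE M21, which holds 99.8451% of the features. Alternatives were DESeq2 1.42.0, RLE scaling, no low-count filter, no block, other gates and class rules, and comparison cells at least as deep as the shallowest gated cell. Thinning of comparison cells to 5000 UMIs, leaving out gated cells rich in other-cell markers and a gate share at 10% mitochondrial UMIs were chosen after seeing the data.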

Additional observations from a re-analysis of the deposited data

How the results depend on the processing

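Against other neurons, DESeq2 called 548 genes higher and 632 lower (of 21477), comparison cells of at least 5000 UMIs thinned to 5000 gave 1371 and 1296 (of 8996), and the deeper class of other neurons 872 and 1068 (of 9858), against 2072 and 2017. Without the replicate block 1331 were higher and 1359 lower. Against non-neuronal cells, DESeq2 called 1273 higher and 1458 lower, and the thinned cells gave 1490 and 1374, against 2740 and 2997. Fewer genes were tested with thinned or deeper cells, and otherwise the cause was not tested. No paired analysis beyond the library block was made. The gate's share in library 2 was 2.74% with at least 3 gate genes and 2.76% with at most 10% mitochondrial UMIs. Signs turned for 3 genes: Col7a1 was at -0.04 and Atf3 at -0.88 without replicate 2 (1.81 and 2.14 without replicate 1), and En2 at -0.08 with comparison cells thinned to 5000 UMIs. Of 100 genes named and called against other neurons, 82 kept their call with DESeq2, 86 of the 98 still tested with the deeper class, 89 without the block and 100 with RLE scaling, with doublets removed and with a class ratio of 4. With 1 library left out no residual degrees of freedom remain, so only the folds of single libraries were given, and the comparison with deeper cells among the non-neuronal ones was not run, since library 1 had 1 such cell. At the depth of library 2, a gene absent from a cell was often not detectable: Th was seen in 55 of 94 gated cells.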

Other observations

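In library 1 the mitochondrial share of the gated cells ran from 2.72% to 11.6% of UMIs, and the cell with the highest share was also the shallowest, at 37288 UMIs. In library 2, 9 of the 94 gated cells held fewer than 2 pan-neuronal UMIs per non-neuronal marker UMI. Slc5a7, the choline transporter gene, stood at 4.05 and 20.1 CPM in the gated cells against 3.64 and 15.6 in other neurons (log2 0.27, edgeR adjusted p = 0.697), the one gene of other transmitter identities tested that did not fall.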
